A study of Mus musculus with 12 samples.

Results

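The genes described here are 37 genes of the cell cycle and of DNA replication, measured by RNA-Seq in primary keratinocyte cultures of newborn BALB/c mice. They were found by name among the 21947 loci of the deposited count table, and all 37 were present. Of these, 28 genes have a row of their own and 9 lie in a row whose reads were counted together with other genes: Mcm3 (with AK205147), Gins2 (with Gse1), Rrm1 (with AK213775), Tk1 (with Syngr2 and Afmid), Ccna2 (with Exosc9), Plk1 (with Dctn5), Kif20a (with Cdc23 and Brd8), Nusap1 (with Oip5) and Cdc20 (with Elovl1). A value of such a row cannot be assigned to the named gene alone, and it is called a joined row below. All cultures were grown at 0.05 mM calcium, moved to a final 0.12 mM, which induces differentiation, and lysed for total RNA 48 hours after transfection. The libraries without siRNA (n = 2, batch 1) had received no siRNA, the siControl libraries (n = 2 in batch 1, n = 3 in batch 2) 75 pmol of a pool of non-targeting siRNAs, and the siSbsn libraries (n = 2 in batch 1, n = 3 in batch 2) 75 pmol of a pool against Sbsn, which encodes suprabasin, a protein of the differentiating epidermis. What separates batch 1 from batch 2 is not given in the labels. Beyond a mention of triplicates, nothing in the labels says that the libraries of a group came from separate cultures or litters, so the p-values measure the spread between these libraries, which may be technical.

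A dividing cell first licenses its origins of replication by loading the Mcm2-7 helicase, then copies its DNA in S phase, when E2F transcription factors drive the genes of the replication machinery and of nucleotide supply. Cyclin B and Cdk1 then start mitosis, in which Aurora and Polo kinases, kinesins and the spindle checkpoint move the chromosomes apart. In the epidermis division is a property of basal keratinocytes, which leave the cell cycle as they differentiate, and raised calcium brings about the same exit in culture.

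Total counts per library ranged from 27934836 to 49553923, and each of the 37 rows held between 71 and 11576 reads in every library. The 9 pairs of libraries of the same group differed by more than counting error allows (chi-square over degrees of freedom 4.47 to 203.6), and the largest value belonged to the siControl pair of batch 1. Sbsn was lower in siSbsn than in siControl in batch 2 (121 to 125 CPM against 332 to 459 CPM), but not in batch 1 (log2-fold change 0.029, SE 0.45, q = 0.975, with edgeR). There the library labelled siSbsn replicate 1 held 1965 CPM, the highest value of all libraries, and siSbsn replicate 2 held 696 CPM, against 1189 and 1356 CPM in siControl. The interaction of batch and treatment was -1.70 for Sbsn (q = 0.272). The unit CPM is the count of a row scaled to the effective size of its library after TMM normalization. The keratinocyte genes Krt5, Krt14, Trp63, Krt1, Krt10, Ivl and Lor together reached 21310 to 47200 CPM in batch 1 and 16440 to 21720 CPM in batch 2. Markers of other cell types also differed between libraries. The 7 fibroblast markers summed to 485 to 1370 CPM in batch 1, highest in siSbsn replicate 1, and to 458 to 534 CPM in batch 2. The 6 melanocyte markers summed to 729 to 913 CPM in batch 1 and 1011 to 1071 CPM in batch 2. The 7 immune cell markers, of which Cd207 was at 0 in every library, summed to 8.46 to 17.0 and 6.02 to 8.14 CPM, and the 5 endothelial markers to 1.23 to 3.28 CPM over both batches. Their part in the results below was not tested.

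Promoter sequences are shown for 6 genes that were lower in batch 2, 2 of replication and 4 of mitosis. These sequences serve as examples of words near the start whose shares differ between these classes, and not every gene of a class holds them. Each is 180 bases of RefSeq sequence (GRCm38.p6, the build also called mm10), from 150 bases before to 30 bases after the annotated start, written 5′ to 3′ on the gene's strand. Capitals mark, on either strand, the E2F words TTTCGCGC, TTTGGCGC, TTTCCCGC and TTTGCCGC, the CCAAT box, and the words TTTGAA and TTCGAA of the cell cycle genes homology region, the element through which the DREAM and B-Myb complexes act on mitotic genes. The windows lie at chr1:128359676-128359855 (minus strand) for Mcm6, chr11:98908001-98908180 (plus strand) for Cdc6, chr10:69352883-69353062 (minus strand) for Cdk1, chr9:70421525-70421704 (minus strand) for Ccnb2, chr9:61946770-61946949 (minus strand) for Kif23 and chr11:99024160-99024339 (minus strand) for Top2a.
Mcm6: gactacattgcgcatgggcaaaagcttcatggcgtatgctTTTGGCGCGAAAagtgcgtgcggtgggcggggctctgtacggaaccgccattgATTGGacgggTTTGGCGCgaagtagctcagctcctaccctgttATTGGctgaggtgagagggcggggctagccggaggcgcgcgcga
Cdc6: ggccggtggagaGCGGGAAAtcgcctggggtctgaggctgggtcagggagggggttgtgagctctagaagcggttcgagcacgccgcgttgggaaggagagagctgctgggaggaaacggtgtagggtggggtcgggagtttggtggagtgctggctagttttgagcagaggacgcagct
Cdk1: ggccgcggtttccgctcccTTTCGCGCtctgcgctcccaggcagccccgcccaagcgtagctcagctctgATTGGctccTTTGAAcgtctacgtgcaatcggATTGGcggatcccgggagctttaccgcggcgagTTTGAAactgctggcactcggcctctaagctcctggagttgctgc
Ccnb2: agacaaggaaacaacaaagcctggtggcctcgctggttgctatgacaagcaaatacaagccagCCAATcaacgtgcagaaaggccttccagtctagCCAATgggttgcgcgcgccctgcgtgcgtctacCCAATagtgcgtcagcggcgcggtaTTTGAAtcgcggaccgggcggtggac
Kif23: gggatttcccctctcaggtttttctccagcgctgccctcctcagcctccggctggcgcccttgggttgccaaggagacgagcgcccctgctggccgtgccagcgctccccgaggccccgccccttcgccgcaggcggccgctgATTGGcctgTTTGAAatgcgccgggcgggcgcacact
Top2a: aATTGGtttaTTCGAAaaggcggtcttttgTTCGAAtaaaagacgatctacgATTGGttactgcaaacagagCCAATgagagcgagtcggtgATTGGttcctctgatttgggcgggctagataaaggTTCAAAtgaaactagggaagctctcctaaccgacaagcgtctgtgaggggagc

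The Mcm6 stretch holds 3 E2F words, 2 of which overlap, and the Cdc6 stretch holds 1, while neither holds a homology-region word. The Ccnb2, Kif23 and Top2a stretches hold homology-region and CCAAT words and no E2F word, and Cdk1 holds words of all 3 kinds. In the 300-base windows of the table (250 bases before to 50 after the start), which were found for 31 of the 37 genes (not for Mcm4, Gins2, Ccna2, Aurkb, Kif20a and Tpx2), a homology-region word was present in 13 of 17 mitosis genes and in 2 of 14 replication genes, against 19.2% of 32851 promoters. CCAAT was present in 15 of the 17 and 8 of the 14, against 37.4% of all promoters. An E2F word was present in 1 of the 17 and 6 of the 14, against 2.26%. Among genes called lower in batch 2 that are not shown, Rrm2 and Tk1 held no E2F word. Ccnb1 and Birc5, also called lower, held no homology-region word. The first entry under each gene name was used, while the 32851 promoters include every entry. For Cdc6 and E2f1 the window lay wholly inside the counted row of the gene, and other starts were not searched. These are matches of letters and do not show that a factor bound there.

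Per kilobase of the longest annotated transcript, Pcna, Rrm2 and subunits of the helicase were the most abundant of the 28 genes with a row of their own. Joined rows were left out of this order. Which transcript of a gene was expressed was not tested, so the order of genes depends on the annotation. Pcna, the sliding clamp of the replicative polymerases, stood highest among the 28 genes with a row of their own, at 29.3 ± 3.40 CPM per kilobase (mean ± SD, n = 12 libraries). Rrm2, the regulated subunit of ribonucleotide reductase, followed at 20.4 ± 7.85, with the helicase subunits Mcm7 at 15.2 ± 1.82, Mcm4 at 14.6 ± 2.17, Mcm5 at 14.5 ± 2.69 and Mcm2 at 14.3 ± 1.59. The second place of Rrm2 came from batch 1, where it was at 22.4 to 31.9 and above Pcna in 2 libraries, while in batch 2 it was at 12.1 to 14.8 against 14.1 to 16.5 for Mcm7. The SDs of these 4 helicase genes are larger than the steps between them, so their order is not resolved. Tpx2, which activates Aurora A on the spindle, was the highest mitotic gene with a row of its own, at 13.8 ± 2.71. Top2a, the topoisomerase that untangles sister chromatids, was at 10.3 ± 3.54. Cdk1 was at 5.39 ± 2.30 and Mki67, the chromosome-coating protein detected as Ki-67, at 5.92 ± 2.02, again closer to each other than their SDs. Cdc6, the loader of the helicase, was lowest at 0.750 ± 0.303, below Cenpf, a kinetochore protein, at 1.61 ± 0.452.

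Among the comparisons made, edgeR called any of the 37 genes only between the batches: 17 fell in batch 2, and the cyclins and mitotic kinases had the lowest median of the roles. The batches were compared over the 10 siControl and siSbsn libraries with treatment as a term. Genes were called with edgeR's quasi-likelihood test where the q-value, adjusted by Benjamini-Hochberg over all loci, was under 0.05 and the log2-fold change above 0.5 in size. Of the 37 genes 17 were called lower in batch 2 and 1 was called higher, while 21.6% of the 13211 loci tested were called lower and 16.4% higher. The median log2-fold change of the 37 genes was -0.42, and that of all loci was -0.021. All 28 genes with a row of their own lay below 0, with a median of -0.55 and 14 called. In 22 of the 37 genes all 6 batch 2 libraries lay below all 4 siControl and siSbsn libraries of batch 1 (19.1% of loci), and in 2, the joined rows of Gins2 and Kif20a, they lay above (16.9% of loci). The 28 genes with own rows held 0.0782% to 0.0967% of all counts in the libraries of batch 1 and 0.0617% to 0.0683% in those of batch 2, with no overlap. In cultures measured as a whole, fewer dividing cells and less of these RNAs per cell cannot be told apart, and what differs between the batches cannot be told apart from the batch itself.

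**Figure D1:**
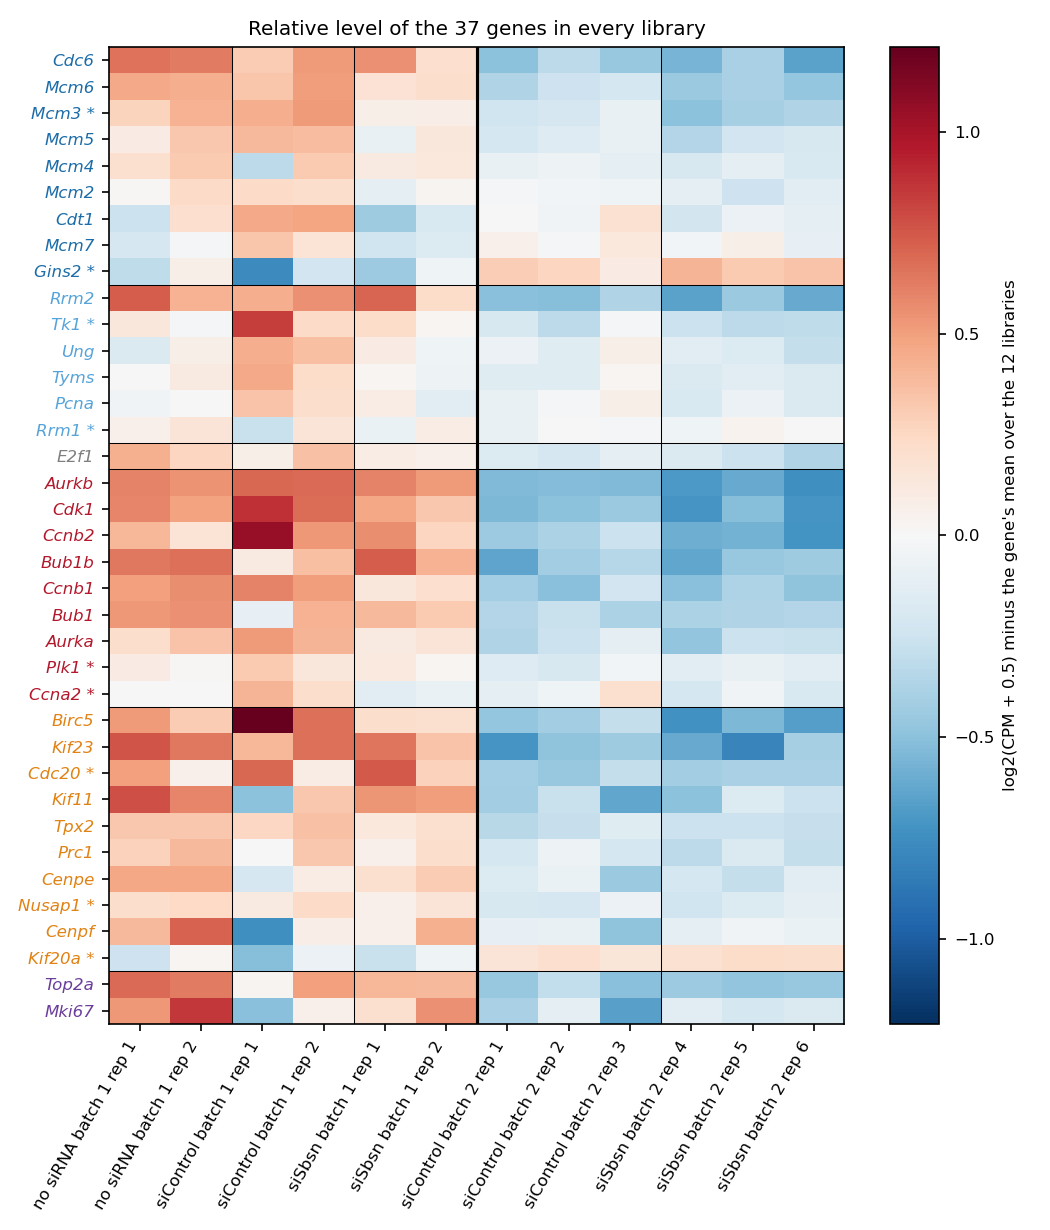
Heat map of the relative level of the 37 genes (rows, coloured by role, * marks a joined row) in the 12 libraries (columns), as log2(CPM + 0.5) minus the gene's mean over the 12 libraries. The 6 batch 2 columns are below the gene's mean for most rows, while the joined rows of Gins2 and Kif20a run the other way.

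The cyclins and mitotic kinases showed the difference most fully, with a median log2-fold change of -0.84. Of these 9 genes 7 were called lower (21.6% of loci) and 8 were lower without overlap (19.1% of loci). Aurkb (chr11:69045637-69051664), the kinase of the chromosomal passenger complex that corrects wrong spindle attachments, was at 14.1 and 13.9 CPM in siControl, 13.1 and 12.3 in siSbsn and 13.1 and 12.6 in the libraries without siRNA of batch 1. Batch 2 gave 5.70, 5.75 and 5.70 in siControl and 5.05, 5.39 and 4.87 in siSbsn. Every batch 2 library was below every batch 1 library, and the level of batch 2 was 59.6% lower (log2-fold change -1.31, SE 0.081, q = 2.10e-06). Cdk1 (chr10:69336635-69352912), the kinase that drives entry into mitosis, was at 40.5 and 35.0 CPM in siControl, 30.1 and 27.2 in siSbsn and 32.9 and 30.5 in the libraries without siRNA of batch 1. The batch 2 values were 14.7, 15.2 and 15.7 for siControl and 13.0, 14.99 and 13.0 for siSbsn. No batch 2 library reached any batch 1 library, and the level was 56.3% lower (log2-fold change -1.19, SE 0.092, q = 7.53e-06). Its partner cyclins followed. Ccnb2 was at 19.0 and 13.0 CPM in siControl, 13.4 and 10.8 in siSbsn and 11.9 and 10.1 in the libraries without siRNA of batch 1. siControl of batch 2 stood at 6.45, 6.73 and 7.38 and siSbsn at 5.73, 5.84 and 5.19, lower in all batch 2 libraries (log2-fold change -1.17, SE 0.12, q = 4.86e-05). Ccnb1 was at 11.2 and 10.4 CPM in siControl, 7.95 and 8.39 in siSbsn and 10.4 and 10.9 in the libraries without siRNA of batch 1. For batch 2 the table gave 5.30, 4.91 and 6.06 in siControl and 4.93, 5.46 and 5.00 in siSbsn, again without overlap (log2-fold change -0.84, SE 0.11, q = 1.53e-04). The spindle checkpoint kinases Bub1b and Bub1 were called lower at log2-fold changes of -0.96 (SE 0.13) and -0.66 (SE 0.11), as was Aurka, the kinase of the spindle poles, at -0.60 (SE 0.092). Aurka was under the threshold with the trend by transcript length removed (-0.36).

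The joined rows of Plk1 and Ccna2 were the members of this group that were not called. The Plk1 row, which includes the Polo kinase of mitotic entry, was at 91.9 and 81.1 CPM in siControl, 80.0 and 75.0 in siSbsn and 78.9 and 74.5 in the libraries without siRNA of batch 1. The libraries of batch 2 were at 66.2, 64.5 and 72.1 (siControl) and 67.0, 69.2 and 67.5 (siSbsn). Batch 2 lay below batch 1 without overlap, but the difference was small (log2-fold change -0.28, SE 0.076, q = 0.0107). The Ccna2 row, which includes cyclin A2 of S and G2 phase, was at 136 and 119 CPM in siControl, 94.1 and 96.8 in siSbsn and 102 and 103 in the libraries without siRNA of batch 1. Values in batch 2 were 94.4, 99.1 and 118 in siControl and 88.7, 99.5 and 89.9 in siSbsn. Its groups overlapped (log2-fold change -0.18, SE 0.092, q = 0.127).

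**Figure D2:**
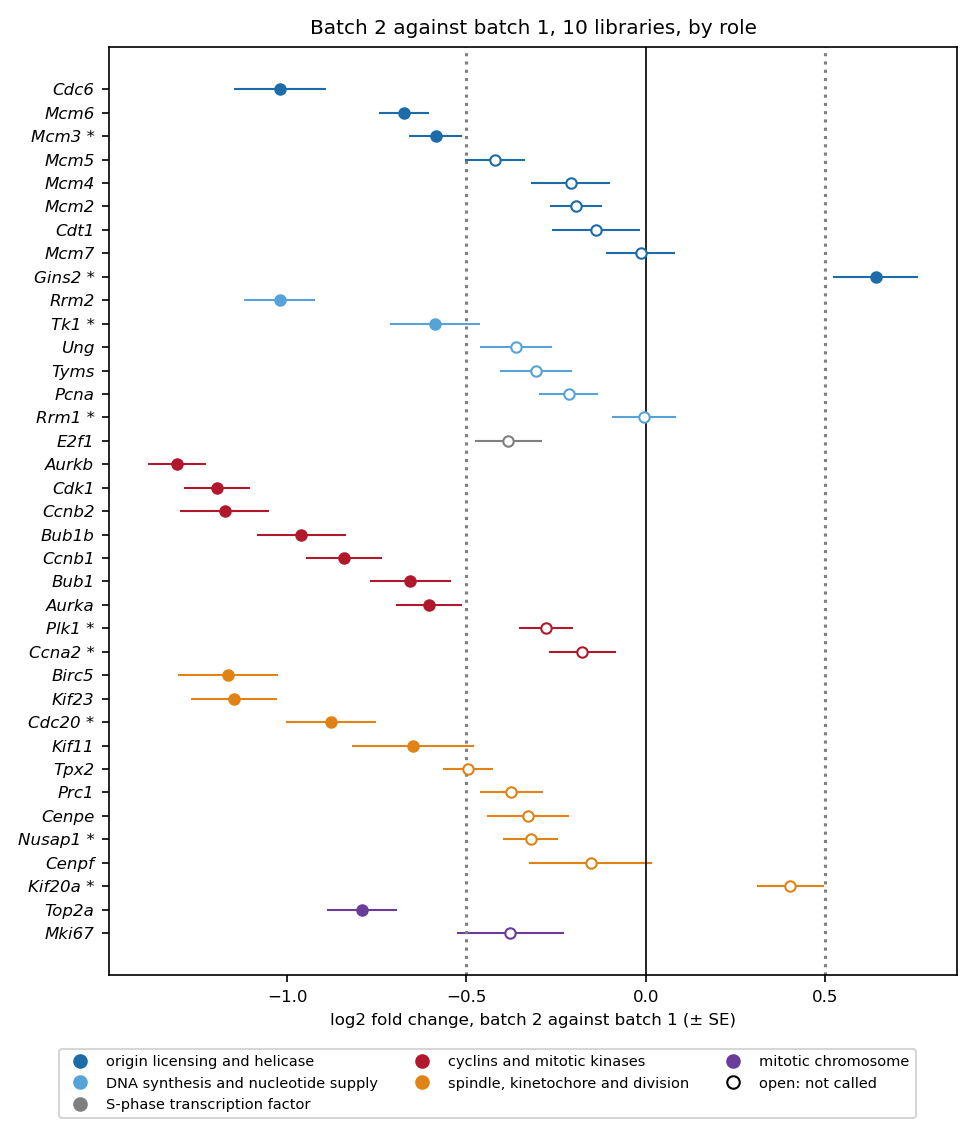
Log2-fold change of batch 2 against batch 1 with its SE for each of the 37 genes (10 libraries, treatment as a term), coloured by role, filled where called, with dotted lines at the threshold of 0.5 in both directions. Points run from -1.31 (Aurkb) to 0.64 (the joined row of Gins2), and 35 of 37 lie left of 0.

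Among the spindle, kinetochore and division genes 4 of 10 were called lower (21.6% of loci), and the group's median was -0.44. Birc5, or survivin, the partner of Aurora B in the passenger complex, was at 24.5 and 16.7 CPM in siControl, 12.02 and 11.9 in siSbsn and 14.99 and 12.9 in the libraries without siRNA of batch 1. In batch 2 the siControl libraries held 7.34, 7.59 and 8.34 and the siSbsn libraries 6.00, 6.94 and 6.34. All batch 2 libraries were below all batch 1 libraries (log2-fold change -1.16, SE 0.14, q = 1.11e-04). Kif23, a kinesin of the central spindle, stood at 5.53 to 7.46 CPM in batch 2 against 12.8 to 16.2 CPM in the siControl and siSbsn libraries of batch 1 (log2-fold change -1.15, SE 0.12, q = 4.66e-05). The joined row of Cdc20, which includes the activator of the anaphase-promoting complex, was at 310.2 and 204 CPM in siControl, 322 and 233 in siSbsn and 271 and 200.3 in the libraries without siRNA of batch 1. Batch 2 gave 144, 139 and 157 in siControl and 143, 146 and 146 in siSbsn, also without overlap (log2-fold change -0.88, SE 0.12, q = 3.14e-04). The row varied within batch 1, where number 1 was above number 2 in all 3 conditions. Kif11, the kinesin that pushes the spindle poles apart, was at 8.25 and 14.98 CPM in siControl, 17.4 and 17.0 in siSbsn and 20.7 and 18.1 in the libraries without siRNA of batch 1. The batch 2 values were 8.70, 9.75 and 7.47 for siControl and 8.26, 10.5 and 9.80 for siSbsn. It was called lower (log2-fold change -0.65, SE 0.17, q = 0.00880) although its groups overlapped, through the low siControl replicate 1 of batch 1.

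The other members of the group were not called. Tpx2, at -0.496 (SE 0.071, q = 3.16e-04), fell just short of the threshold without overlap, and Prc1, the bundler of antiparallel microtubules, and the joined row of Nusap1, a microtubule stabilizer, were at -0.37 and -0.32, also without overlap. The kinetochore motor Cenpe and Cenpf were at -0.33 and -0.15 with overlapping groups. Cenpf was at 10.2 and 18.3 CPM in siControl, 18.1 and 23.5 in siSbsn and 22.8 and 28.7 in the libraries without siRNA of batch 1. siControl of batch 2 stood at 16.1, 16.2 and 12.2 and siSbsn at 15.9, 16.7 and 16.3. Cenpe, Cenpf and Tpx2 were called lower with the trend by transcript length removed, at -0.75, -0.75 and -0.57. In the joined row of Kif20a, a kinesin of cytokinesis counted together with Cdc23 and Brd8, the values were 196 to 205 CPM in batch 2 and 124 to 169.8 CPM in siControl and siSbsn of batch 1, higher in batch 2 but under the threshold (log2-fold change 0.40, SE 0.093, q = 0.00470).

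Of the 2 mitotic chromosome genes, Top2a (chr11:98992947-99024189) was called lower and Mki67 (chr7:135689788-135716379) was not. Top2a was at 52.1 and 71.9 CPM in siControl, 67.3 and 66.7 in siSbsn and 82.1 and 78.9 in the libraries without siRNA of batch 1. For batch 2 the table gave 36.8, 41.3 and 35.6 in siControl and 37.2, 36.4 and 36.8 in siSbsn, without overlap (log2-fold change -0.79, SE 0.097, q = 1.30e-04). Mki67 was at 39.7 and 59.4 CPM in siControl, 65.2 and 83.5 in siSbsn and 81.9 and 103 in the libraries without siRNA of batch 1. The libraries of batch 2 were at 43.2, 52.4 and 35.8 (siControl) and 51.4, 48.8 and 50.3 (siSbsn). The siControl replicate 1 of batch 1 lay among the batch 2 libraries, and the difference missed the threshold (log2-fold change -0.38, SE 0.15, q = 0.0528). Mki67 was called lower at -0.93 (q = 1.56e-06) with the trend by transcript length removed, at -0.51 (q = 0.00441) without that library, at -0.58 (q = 0.00231) without it and siSbsn replicate 1 of batch 1, and at -0.56 (q = 0.00783) among siSbsn libraries alone. Among siControl libraries alone it was at -0.18 (q = 0.572).

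The licensing genes were unequal, with 3 of 9 called lower and 1 called higher (21.6% and 16.4% of loci). Mcm6, a helicase subunit, was at 49.8 and 55.95 CPM in siControl, 44.5 and 45.5 in siSbsn and 54.3 and 53.6 in the libraries without siRNA of batch 1. Values in batch 2 were 30.5, 33.1 and 33.9 in siControl and 28.7, 29.7 and 28.3 in siSbsn. All batch 2 libraries were below all batch 1 libraries (log2-fold change -0.67, SE 0.070, q = 4.54e-05). Cdc6 was at 4.29 and 5.03 CPM in siControl, 5.18 and 3.95 in siSbsn and 5.599 and 5.46 in the libraries without siRNA of batch 1. In batch 2 the siControl libraries held 2.25, 2.60 and 2.32 and the siSbsn libraries 2.12, 2.45 and 1.96, without overlap, and the level was 50.7% lower (log2-fold change -1.02, SE 0.13, q = 1.53e-04). The joined row of Mcm3, another helicase subunit, was also called, at -0.59 (SE 0.073). Mcm5 was at 63.5 and 63.0 CPM in siControl, 45.6 and 53.2 in siSbsn and 51.9 and 60.8 in the libraries without siRNA of batch 1. Batch 2 gave 41.8, 43.5 and 45.4 in siControl and 37.8, 41.1 and 42.4 in siSbsn, without overlap but under the threshold (log2-fold change -0.42, SE 0.083, q = 0.00208). Among siControl libraries alone Mcm5 was called lower, at -0.55 (q = 0.0370).

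The remaining helicase subunits, which form a complex with Mcm6, were not called. Mcm2 was at 58.2 and 57.6 CPM in siControl, 45.5 and 50.6 in siSbsn and 49.9 and 58.4 in the libraries without siRNA of batch 1. The batch 2 values were 49.0, 48.4 and 47.7 for siControl and 45.9, 41.6 and 44.9 for siSbsn, with overlapping groups (log2-fold change -0.19, SE 0.073, q = 0.0421). Mcm4 and Mcm7 had log2-fold changes of -0.21 (SE 0.11) and -0.014 (SE 0.095). For Mcm7 the 6 batch 2 values of 41.7 to 49.0 CPM lay inside the 37.9 to 56.8 CPM of siControl and siSbsn in batch 1. Cdt1, which loads the helicase together with Cdc6, was at 36.96 and 37.5 CPM in siControl, 19.8 and 23.5 in siSbsn and 22.4 and 31.1 in the libraries without siRNA of batch 1. siControl of batch 2 stood at 26.7, 26.1 and 30.6 and siSbsn at 22.9, 25.5 and 24.7. The batch 2 values lay below the siControl libraries of batch 1 and overlapped with its siSbsn libraries (log2-fold change -0.14, SE 0.12, q = 0.360). The joined row of Gins2, a helicase cofactor counted with Gse1, was at 80.9 and 118 CPM in siControl, 102 and 134 in siSbsn and 112 and 145 in the libraries without siRNA of batch 1. For batch 2 the table gave 170.0, 166 and 148 in siControl and 184, 172 and 176 in siSbsn, higher in batch 2 without overlap (log2-fold change 0.64, SE 0.12, q = 0.00139). With the trend by transcript length removed it was at 0.30, and without siControl replicate 1 and siSbsn replicate 1 of batch 1 at 0.44, both under the threshold.

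**Figure D3:**
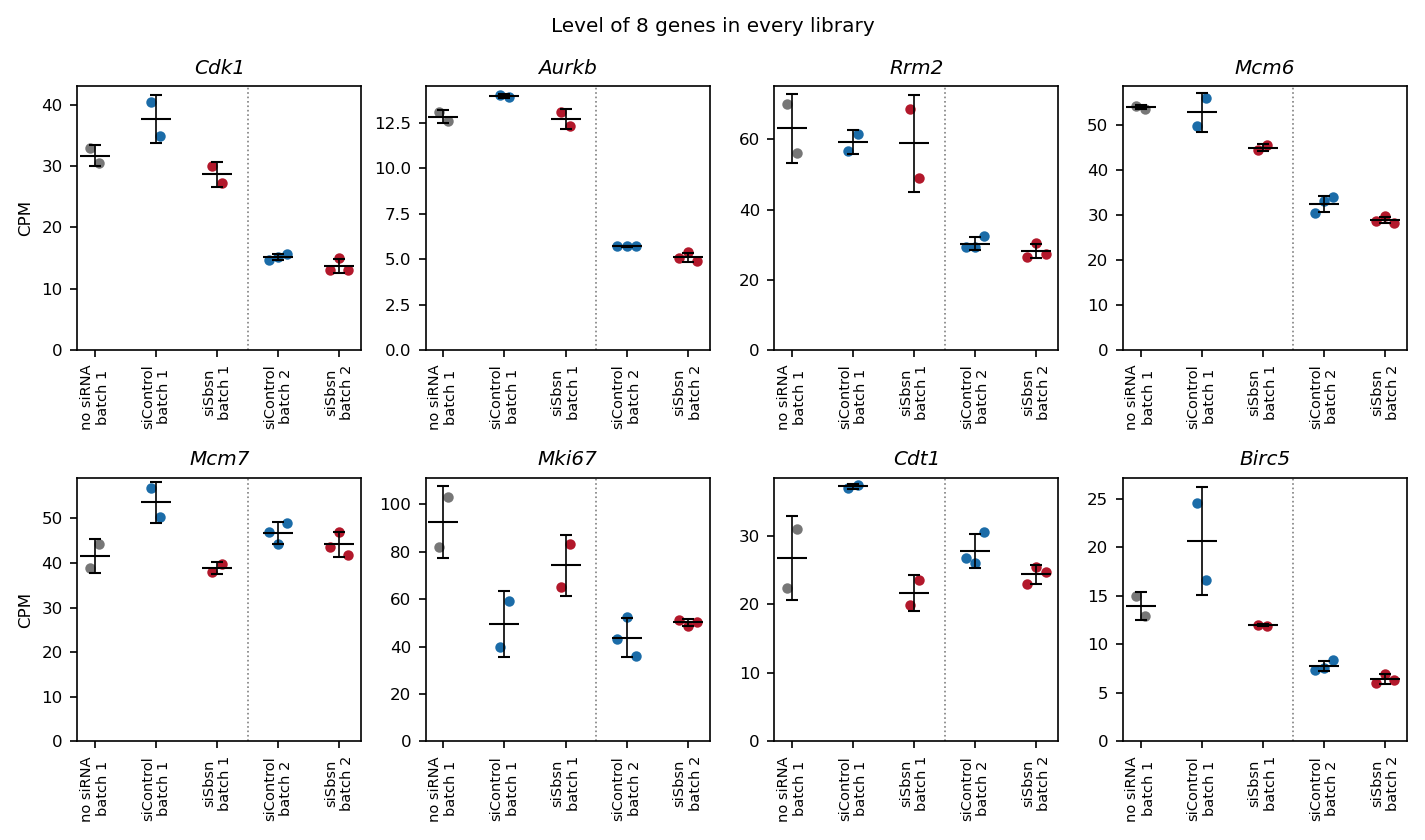
CPM of 8 genes in every library, 1 point per library, with the mean and SD of each group and a dotted line between the batches. Cdk1, Aurkb, Rrm2 and Mcm6 drop between batches without overlap, Mcm7 stays within its batch 1 range, and Mki67, Cdt1 and Birc5 also spread within batch 1.

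Synthesis and nucleotide supply genes were called lower in 2 of 6 cases (21.6% of loci). Rrm2 (chr12:24708254-24714146) was at 56.8 and 61.6 CPM in siControl, 68.7 and 49.0 in siSbsn and 70.0 and 56.2 in the libraries without siRNA of batch 1. The libraries of batch 2 were at 29.3, 29.2 and 32.4 (siControl) and 26.6, 30.5 and 27.3 (siSbsn). Its batch 2 level was 50.7% lower, without overlap (log2-fold change -1.02, SE 0.10, q = 2.99e-05), whereas the joined row of Rrm1, the other subunit of the same enzyme, was at 135 to 148 CPM in batch 2 and 119 to 160.4 CPM in siControl and siSbsn of batch 1 (log2-fold change -0.0036, SE 0.089, q = 0.978). The joined row of Tk1, the thymidine salvage kinase, was at 251 and 165 CPM in siControl, 164 and 143 in siSbsn and 155 and 139 in the libraries without siRNA of batch 1. Values in batch 2 were 123, 113 and 138 in siControl and 118, 113 and 113 in siSbsn. All batch 2 values lay below those of batch 1 and the row was called lower (log2-fold change -0.59, SE 0.12, q = 0.00295), but without siControl replicate 1 of batch 1 it was at -0.41 and with the trend by transcript length removed at -0.43, both under the threshold. Pcna was at 56.3 and 51.5 CPM in siControl, 47.1 and 40.2 in siSbsn and 43.1 and 44.2 in the libraries without siRNA of batch 1. In batch 2 the siControl libraries held 41.5, 43.5 and 46.6 and the siSbsn libraries 38.9, 42.1 and 39.3. Its groups overlapped (log2-fold change -0.21, SE 0.082, q = 0.0453), and with the trend by transcript length removed the value was 0.094. Ung, the glycosylase that removes uracil from DNA, was at 10.1 and 9.61 CPM in siControl, 7.89 and 7.09 in siSbsn and 6.44 and 7.77 in the libraries without siRNA of batch 1. Batch 2 gave 6.98, 6.58 and 7.76 in siControl and 6.62, 6.49 and 5.92 in siSbsn. It was lower by less than the threshold (log2-fold change -0.36, SE 0.099, q = 0.0114), as was Tyms, thymidylate synthase (log2-fold change -0.31, SE 0.10, q = 0.0251). E2f1, the transcription factor of S-phase genes, was at 9.19 and 11.3 CPM in siControl, 9.31 and 9.09 in siSbsn and 11.9 and 10.5 in the libraries without siRNA of batch 1. The batch 2 values were 7.73, 7.51 and 8.02 for siControl and 7.65, 7.18 and 6.68 for siSbsn, without overlap and under the threshold (log2-fold change -0.38, SE 0.093, q = 0.00617).

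Genes were also called within each treatment. Among siControl libraries alone 16 of the 37 genes were called lower and 0 higher (10.6% and 4.22% of loci), and among siSbsn libraries alone 15 lower and 1 higher (19.9% and 15.5% of loci), with medians of -0.49 and -0.42. Without siControl replicate 1 and siSbsn replicate 1 of batch 1, 18 genes were called lower and 0 higher (15.2% and 10.9% of loci). After removal of the trend by transcript length 19 were called lower and 0 higher (19.3% and 14.5% of loci). DESeq2 called 17 lower and 1 higher (14.6% and 12% of the 20053 loci it fitted). The fibroblast, keratinocyte and immune marker sums were highest in libraries of batch 1 and the melanocyte sums higher in every library of batch 2. Single markers of a list differed in direction between the batches. Of the fibroblast markers Dcn (1.17) and the Pdgfra row (0.54) were highest, and Col1a1 (-0.75) and Col1a2 (-0.56) lowest. Of the keratinocyte markers Krt10 (1.00) and Trp63 (0.30) were highest, and Ivl (-2.31) and Lor (-1.81) lowest. Sbsn was at -2.63. The part of these cell types and of differentiation in the batch difference of the 37 genes was not tested.

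The further genes of these pathways are given against the 21.6% of all loci called lower and the 16.4% called higher. Of 46 other mitosis genes 23 were called lower and 0 higher, led by Fam64a (-1.38) and Cdca3 (-1.28), with Anln, a cytokinesis scaffold (0.50, q = 0.0514), and the joined row of Ncapg (0.45, q = 0.0179), a condensin subunit, at the other end. Of 32 other replication genes 14 were called lower and 1 higher: Uhrf1, a reader of hemimethylated DNA, was at -1.22, Gmnn (geminin), the inhibitor of Cdt1, at -1.10, and Mcm8, a helicase of DNA repair, at 0.57, while the joined row of Rfc4, a clamp loader subunit, was at 0.33, q = 0.0477. Among 23 G1 cyclins, kinases and regulators 5 were called lower and 6 higher, near the shares of all loci. E2f2 (-2.04) and Ccne1 (-1.55), the S-phase factor and the cyclin that starts S phase, were lowest, and Lin9 and Lin54 (both 0.78), subunits of the DREAM complex, highest. Of 7 cyclin-dependent kinase inhibitors tested, 4 were called lower, among them Cdkn2c (-1.06) and Cdkn3 (-0.93). Cdkn1a, or p21, was at 1494 to 1593 CPM in batch 2 and 1223 to 1360.2 CPM in siControl and siSbsn of batch 1 (log2-fold change 0.29, SE 0.071, q = 0.00677), and Cdkn1b, or p27, was at -0.11, q = 0.259. In the promoter windows, 9 of the 16 genes called lower held a homology-region word and 4 an E2F word, against 6 and 3 of the 15 others.

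The comparison of siSbsn with siControl, the one the study was designed for, gave no called change in these genes, and includes batch 1, in which Sbsn itself was not lower. Over both batches, with batch as a term, edgeR called 0 of 37 genes in either direction. It called 0% of loci higher and 0% lower, and the smallest q-value among the 37 genes was 0.256. With an unadjusted p under 0.05 there were 12 lower genes (9.38% of loci) and 1 higher gene, Mki67 (9.55% of loci). DESeq2 also called 0 of the 37, although the joined row of Mcm3 had q = 0.0142 at a log2-fold change of -0.30, short of the fold threshold, with 50 loci higher and 42 lower over the whole table. limma-voom called 0 loci. The median log2-fold change was -0.088 (0.0066 over all loci), and 26 genes lay below 0. In 6 genes, Birc5, Cdt1, the joined row of Mcm3, Mcm6, Mcm2 and Aurkb, every siSbsn library lay below every siControl library of its batch (4.12% of loci), and in 0 genes above (5.02% of loci). Without siControl replicate 1 and siSbsn replicate 1 of batch 1, 0 were called, the median was -0.14 and the smallest q-value 0.103. There were then 12 lower and 2 higher genes with an unadjusted p under 0.05 (11% and 12.2% of loci).

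By role, the licensing genes had a median of -0.19 with 8 of 9 below 0, and the synthesis genes one of -0.19 with 5 of 6 below 0. Cdt1 was lowest among them (log2-fold change -0.42, SE 0.12, q = 0.256), followed by the joined row of Mcm3 (log2-fold change -0.30, SE 0.072, q = 0.256). Mcm2 (-0.18, SE 0.071), Mcm5 (-0.20, SE 0.082), Mcm6 (-0.19, SE 0.070) and Mcm7 (-0.23, SE 0.093) had similar values, while Mcm4 was at -0.0087 (SE 0.11). Pcna was at -0.19, Ung at -0.25, Rrm2 at -0.062, Cdc6 at -0.088, E2f1 at -0.12 and the joined row of Tk1 at -0.24, each with a q-value above 0.05. With the trend by transcript length removed Pcna was at 0.020 and Rrm2 at 0.069.

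The cyclins and mitotic kinases had a median of -0.19, with Ccnb2 lowest (log2-fold change -0.33, SE 0.12, q = 0.256), the joined row of Ccna2 at -0.26, Cdk1 at -0.25 and Ccnb1 at -0.21. Spindle and division genes were divided around a median of 0.0062. Birc5 had the lowest value of all 37 genes (log2-fold change -0.48, SE 0.14, q = 0.256), and Kif11 (log2-fold change 0.31, SE 0.17, q = 0.288) and Cenpf (log2-fold change 0.30, SE 0.17, q = 0.298) stood high, though without siControl replicate 1 of batch 1 they were at 0.15 and 0.15. Mki67 had the highest value (log2-fold change 0.36, SE 0.15, q = 0.259). It was at 0.24 without that library. With the trend by transcript length removed Mki67 and Cenpf did not keep their direction (-0.020 and -0.095), and Ccnb2 was at -0.10. None of these values passed the test.

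The batches were also compared one at a time. In batch 1, 0 of 37 genes were called by edgeR (0% of loci higher, 0% lower). With an unadjusted p under 0.05 there were 5 lower genes, Birc5, Cdt1, Mcm7 and the Mcm3 and Ccna2 rows (8.24% of loci), and 0 higher (7.52%). DESeq2 called 0 of the 37 and, over the table, 135 loci higher and 30 lower. The siSbsn pair lay below the siControl pair in 18 genes (25.6% of loci) and above it in 4, Mki67, Kif11, Cenpe and Bub1b (25.4% of loci). The lowest were Birc5 (log2-fold change -0.82, SE 0.26, q = 0.309) and Cdt1 (log2-fold change -0.81, SE 0.24, q = 0.309), and the highest Mki67 (log2-fold change 0.56, SE 0.26, q = 0.324) and Kif11 (log2-fold change 0.54, SE 0.30, q = 0.360). With the trend by transcript length removed Mki67 was at -0.085. Without siControl replicate 2 of batch 1, the Tk1 and Ccna2 joined rows and Birc5 were called lower (10.9% of loci) and Kif11 higher (8.39% of loci), with siControl then represented by replicate 1, whose 39.7 CPM of Mki67 were the lowest of batch 1. Without replicate 1 instead, 0 were called, and Birc5 was at -0.49, Kif11 at 0.19 and Mki67 at 0.32.

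In batch 2 the libraries of a group differed less (chi-square over degrees of freedom 4.47 to 50.1, against 79.0 to 203.6 in batch 1). There edgeR called 0 of 37 genes (0% of loci higher and 0.00774% lower, the 1 locus called being Sbsn). Lower genes with an unadjusted p under 0.05 numbered 5 (Birc5, Cdt1, Ccnb2, Mcm6 and the Mcm3 row, 5.69% of loci), and higher ones 0 (4.51%). DESeq2 called 0 of the 37 and, over the table, 1 locus higher and 6 lower. The groups were apart in 7 genes lower in siSbsn (9.15% of loci) and 1 higher, the Gins2 joined row (9.39% of loci). The extremes were Ccnb2 (log2-fold change -0.29, SE 0.096, q = 0.456) and Birc5 (log2-fold change -0.27, SE 0.095, q = 0.460) at the low end and Mki67 (log2-fold change 0.20, SE 0.12, q = 0.546) and the Gins2 row (log2-fold change 0.14, SE 0.073, q = 0.507) at the high end. The test of the difference between the batches (interaction of batch and treatment, batch 2 minus batch 1) called 0 of 37 genes in edgeR (0% of loci higher and 0% lower). With an unadjusted p under 0.05 there were 3 higher genes, Cdt1, Birc5 and Mcm7 (7.28% of loci), and 0 lower (7.56%). DESeq2 called 0 of the 37, 35 loci higher and 131 lower. Cdt1 (0.61, q = 0.272) and Birc5 (0.53, q = 0.337) had the highest interaction values, and Kif11 (-0.41, q = 0.523) and Cenpf (-0.40, q = 0.542) the lowest, though Cenpf was at 0.067 with the trend by transcript length removed. Without siControl replicate 2 of batch 1 the interaction was called in Cdt1, Birc5 and the Tk1 row (higher, 13.7% of loci) and in Mcm4, Cenpf and Kif11 (lower, 17.9% of loci). Without siControl replicate 1 instead, 0 were called, and Birc5 was at 0.22, Kif11 at -0.057 and Cenpf at -0.047.

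**Figure D4:**
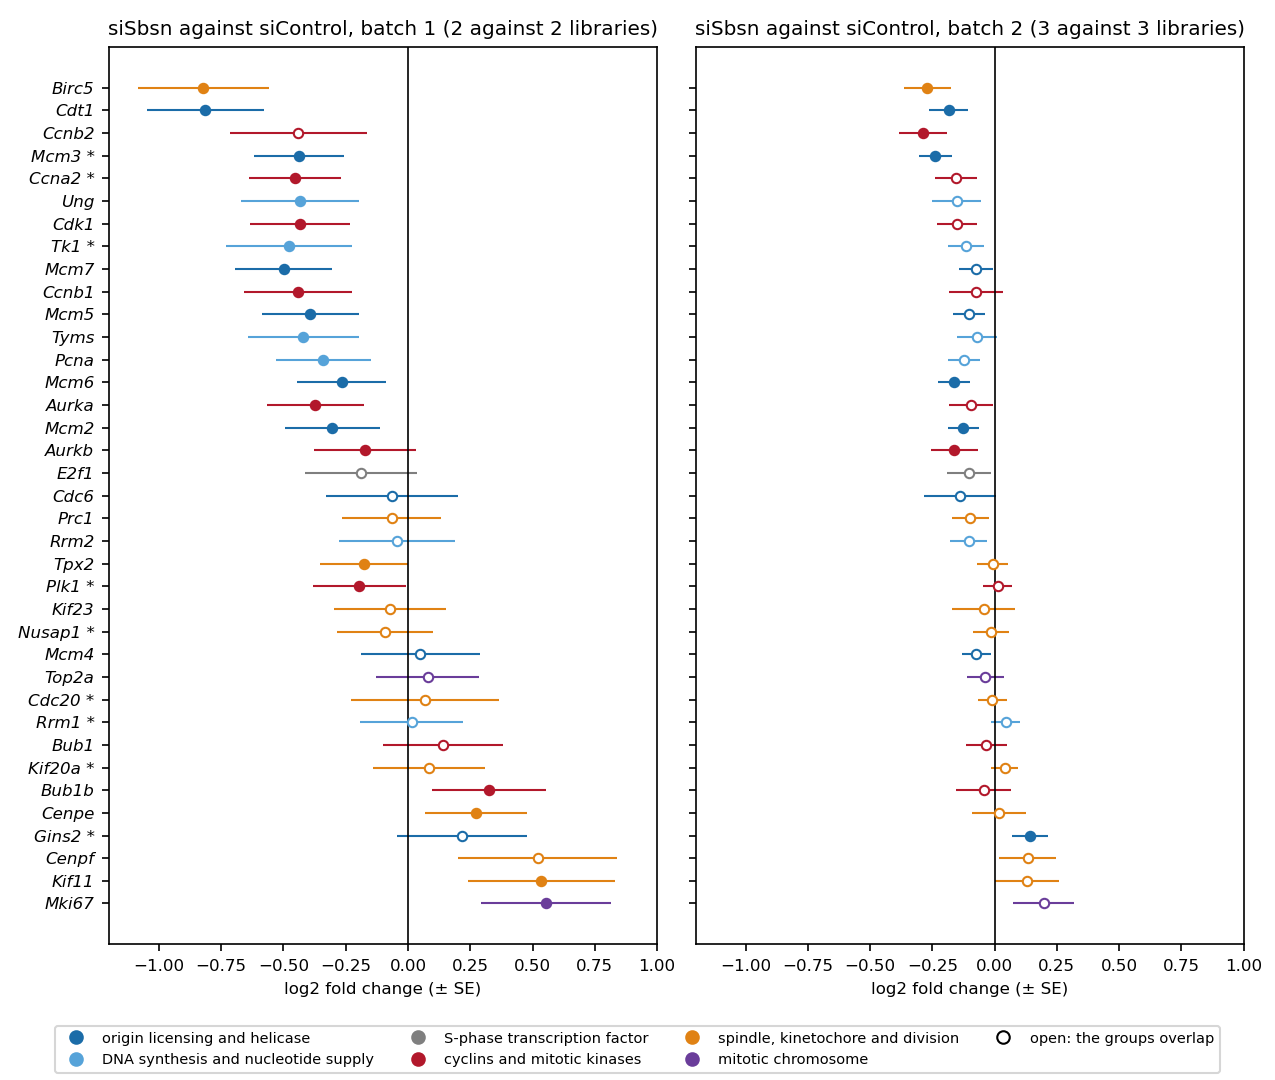
Log2-fold change of siSbsn against siControl with its SE for the 37 genes, batch 1 (left, 2 against 2 libraries) and batch 2 (right, 3 against 3 libraries), coloured by role and filled where the groups do not overlap. The values spread from -0.82 to 0.56 in batch 1 and from -0.29 to 0.20 in batch 2.

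Among further genes edgeR called none over both batches, and the counts below 0 are of genes in the same libraries, which are not independent. Of 32 other replication genes 30 lay below 0 (median -0.17), where the median over all loci, given above for this comparison, was slightly above 0. Rpa2, a subunit of the single-strand binding protein, was at -0.43, q = 0.256 and Gmnn at -0.38, q = 0.256. Of 46 other mitosis genes 29 lay below 0, from Cks2 (-0.65) and Pttg1, or securin (-0.48), to Aspm (0.44) and Cit, citron kinase (0.62). Among the G1 genes Ccne1 was at -0.40, Cdk4 at -0.25, the joined row of Ccnd2 at 0.39 and E2f2 at 0.49.

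Of the kinase inhibitors, Cdkn1b was the highest in siSbsn. Its libraries were at 61.7 and 60.4 CPM in siControl, 94.2 and 95.9 in siSbsn and 83.1 and 67.2 in the libraries without siRNA of batch 1. siControl of batch 2 stood at 67.0, 61.5 and 61.4 and siSbsn at 80.6, 79.0 and 77.7. In each batch every siSbsn library was above every siControl library, a pattern shown by 5.02% of loci. The log2-fold change was 0.45 (SE 0.079, q = 0.256), which did not pass the test. In batch 1, where Sbsn itself was not lower in siSbsn, it was 0.60 (q = 0.309). In batch 2 it was 0.33 (q = 0.319), and the interaction was -0.30, q = 0.328. Cdkn2b was at 0.36, q = 0.413, Cdkn2c, which blocks Cdk4 and Cdk6, at -0.37, q = 0.258 and Cdkn3 at -0.26, q = 0.317. Cdkn1a was at -0.020 (SE 0.069) over both batches, -0.14 in batch 1 and 0.030 in batch 2, with an interaction of 0.14.

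Against the cultures without siRNA, which exist in batch 1 only, siControl and siSbsn were each compared, and these comparisons share libraries with each other and with the one above. In siControl against no siRNA edgeR called 0 of 37 genes (0% of loci higher, 0% lower). With an unadjusted p under 0.05, Mki67, Cenpf, Kif11 and Cenpe were the 4 lower genes (7.29% of loci), and 0 were higher (8.77%). With the number 1 or 2 of the libraries as a block there were 5 lower and 7 higher (17.1% and 17.1% of loci). DESeq2 called 0 of the 37 (0 loci higher and 25 lower). The siControl pair lay above the other in 15 genes (27.2% of loci) and below it in 8 (27.6% of loci). The median was 0.0077, with synthesis genes at 0.34, cyclins and mitotic kinases at 0.21 and the 2 mitotic chromosome genes at -0.61. Mki67 (log2-fold change -0.87, SE 0.26, q = 0.308) and Cenpf (log2-fold change -0.83, SE 0.32, q = 0.308) were lowest, and Birc5 (log2-fold change 0.60, SE 0.26, q = 0.309) and Ccnb2 (log2-fold change 0.58, SE 0.28, q = 0.317) highest. Without the filter on low counts Mki67 was called lower, and without siControl replicate 2 Mki67, Cenpf, Kif11 and Top2a were called lower and Birc5 and the Tk1 row higher (10.9% and 12.8% of loci). Without siControl replicate 1 instead, 0 were called, and Cenpf was at -0.49, Birc5 at 0.26 and Ccnb2 at 0.25. After removal of the trend by transcript length Mki67 was at -0.12, Cenpf at -0.048 and Ccnb2 at 0.095, and 0 genes had an unadjusted p under 0.05.

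In siSbsn against no siRNA edgeR called 0 of 37 genes (0% of loci higher, 0% lower), and 0 had an unadjusted p under 0.05 (0.121% of loci lower and 0.0531% higher). DESeq2 called 0 genes. The siSbsn pair lay below the pair without siRNA in 17 genes (8.42% of loci) and above it in 0 (8.13% of loci). The median was -0.15 (0.00025 over all loci) and 32 genes lay below 0. Ccnb1 (log2-fold change -0.38, SE 0.22, q = 0.9999) and Mki67 (-0.32) were lowest, and Ccnb2 (0.14) and the Cdc20 row (0.23) highest, though without siSbsn replicate 1 they were at -0.022 and -0.013. Of 46 other mitosis genes 44 lay below 0, none called, where the median over all loci was 0.00025. They ran from Ttk, a checkpoint kinase (-0.40), and Smc2, a condensin subunit (-0.34), to Spc24, a kinetochore protein (0.16). Genes of the same libraries are not independent, so the count does not measure how firm this direction is. Cdkn1b was at 0.34 and Cdkn1a at 0.056 here, and at -0.27 and 0.19 in siControl against no siRNA, again not called.

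The log2-fold changes of these comparisons were related to the length of the longest annotated transcript, in these genes and over all loci. Over the 28 genes with a row of their own, Spearman's rho between length and log2-fold change was 0.614 for siSbsn against siControl over both batches (0.579 over all loci), 0.605 in batch 1 (0.56) and 0.594 in batch 2 (0.458). For siControl against no siRNA it was -0.692 (-0.619), of opposite sign, with the siControl libraries shared. The 14 genes with shorter transcripts had a median of -0.382 and the 14 longer ones -0.00781 in siSbsn against siControl of batch 1, against 0.21 and -0.203 in siControl against no siRNA. Mki67 and Cenpf have the longest transcripts (10061 and 11130 bases), and Ccnb2 and Pcna the shortest (1531 and 1518 bases). Between the batches rho was 0.123 over the 28 genes (0.377 over all loci). These correlations are across genes of the same libraries, which are not independent, and what the length trend reflects was not tested.

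**Figure D5:**
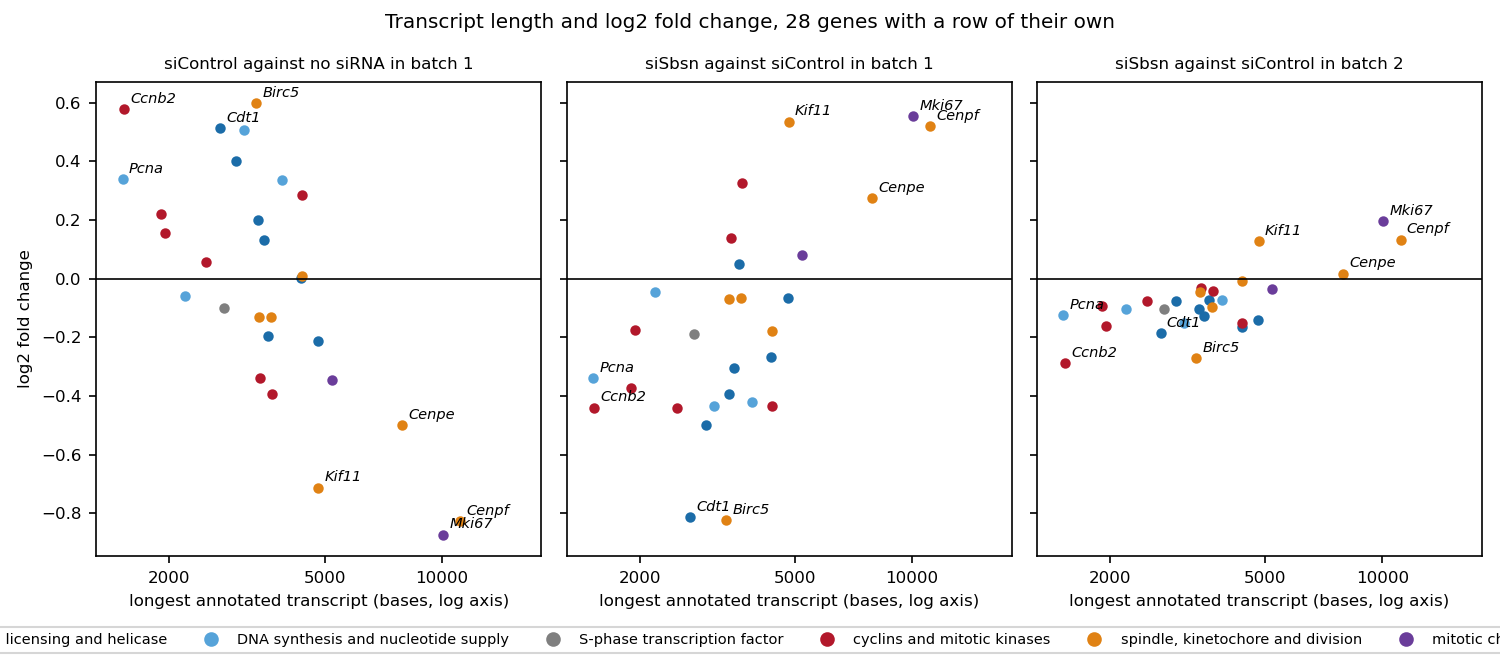
Log2-fold change against the length of the longest annotated transcript (log axis) for the 28 genes with a row of their own, coloured by role, in 3 comparisons. Longer genes lie higher in siSbsn against siControl within each batch (rho of 0.605 and 0.594) and lower in siControl against no siRNA (rho of -0.692).

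Within batch 1 the labels give each condition the numbers 1 and 2, and number 1 was compared with number 2. With condition as a term, 0 of 37 genes were called by edgeR (1.59% of loci higher and 0.638% lower in number 1). With an unadjusted p under 0.05 there were 3 higher genes (Ccnb2 and the Cdc20 and Tk1 rows) and 4 lower (Mki67, Cenpf and the Gins2 and Kif20a rows), against 15.4% and 14% of loci. DESeq2 called 0 of the 37 and 774 loci higher and 806 lower. Number 1 was above number 2 in all 3 conditions in 7 genes (28.2% of loci) and below in 12 (28% of loci). The Cdc20 row (log2-fold change 0.51, SE 0.10, q = 0.0642) and Ccnb2 (log2-fold change 0.38, SE 0.14, q = 0.147) were highest, and Cenpf (log2-fold change -0.50, SE 0.15, q = 0.103) and the Gins2 row (log2-fold change -0.42, SE 0.10, q = 0.0745) lowest. Among the inhibitors Cdkn2b was called higher in number 1 (1.20, q = 0.04999), while Cdkn1a (0.079) and Cdkn1b (0.12) were not.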

How the data were processed

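RNA-Seq was performed on keratinocyte cultures, with 12 libraries. Reads were mapped to mm10 by the authors with STAR (default settings), and those aligning uniquely were counted on UCSC KnownGene genes and deposited as raw counts. Use of strand is not stated in the sources used here, overlapping genes share 1 row, and rows joined by a comma were left out, so paralogs and overlaps may be misassigned. The number of unused sample columns was 0. Total counts ranged from 27934836 to 49553923. Groups were taken from the sample labels. The members and lists were chosen with earlier results of these data known, including the lists of further genes and markers.

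After filterByExpr and TMM scaling, the counts entered edgeR's two-sided quasi-likelihood test (edgeR 4.0.16, R 4.3.3), with Benjamini-Hochberg adjustment over all loci tested. Calls needed an absolute log2-fold change over 0.5 and q under 0.05. The SE was derived from F, as the size of the log2-fold change over its square root. The test was also run on simulated counts, and the outcome is not given here. A count of 0 called genes therefore does not show that none of them changed. Comparisons within batch 1 used its 6 libraries, and the interaction and batch comparisons the 10 siControl and siSbsn libraries. Transcript lengths are of the longest GENCODE transcript of mm10, matched by name. Alternatives were DESeq2 1.42.0 (the authors' tool) and its size factors, limma 3.58.1, no filter, all 12 libraries, removal of a lowess trend by transcript length, the number as a block, and each library left out.

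All 37 genes could be named. Values of every library were given for Mki67, Top2a, Cdk1, Ccnb1, Ccna2, Plk1, Cdc20, Birc5, Mcm2, Mcm5, Mcm6, Pcna, Rrm2, Tk1, Cdc6, Ung and E2f1, and for the 2 highest and 2 lowest genes of a comparison. From each further list the 2 highest and 2 lowest genes could be named, with Cdkn1a, Cdkn1b and Sbsn. Coordinates are 1-based on mm10.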

Additional observations from a re-analysis of the deposited data

How the results depend on the processing

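A gene was counted as kept where it held its direction and side of the threshold, called or not. A count of calls was kept where it stayed similar, and a median where it shifted by less than 0.0289. With 1 library left out 691 values were kept, 16 moved, 6 reversed, 16 gained calls and 1 lost calls. Under the other alternatives 527 values were kept, 4 moved, 9 reversed, 6 gained calls and 10 lost calls. Those that reversed, and the medians and counts that moved, are given first, and the cause was not tested. With the trend by transcript length removed, siSbsn against siControl over both batches reversed in Mki67 (-0.020), Top2a (-0.11), Plk1 (0.054), Pcna (0.020) and Rrm2 (0.069), in batch 1 in Mki67 (-0.085), the interaction in Cenpf (0.067) and the batch difference in Pcna (0.094). That alternative gave a batch median of -0.55 and 0 genes called higher. Without the filter on low counts 1 gene, Mki67, was called lower in siControl against no siRNA. Chosen after seeing the data: leaving out number 1 of siControl and of siSbsn in batch 1 gave medians of -0.14 for siSbsn against siControl, where Top2a reversed (-0.057), and -0.48 for batch, with 0 called higher, and siControl libraries alone gave -0.49 and 0 called higher. Single genes that crossed the threshold outside the fits with 1 library left out, besides Mki67 above, did so in the batch difference: Mki67 was gained at -0.93 (length trend removed), -0.58 (both numbers 1 left out) and -0.56 (siSbsn alone), Mcm5 at -0.55 (siControl alone), the Tk1 row was lost at -0.43 (length trend removed), -0.36 (both numbers 1 left out), -0.75 (siControl alone, q = 0.0566) and -0.41 (siSbsn alone), and the Gins2 row at 0.30 (length trend removed), 0.44 (both numbers 1 left out) and 0.69 (siControl alone, q = 0.0625). These cover the genes followed through every alternative. With the length trend removed Cenpe, Cenpf and Tpx2 were also gained and Aurka lost.

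Leaving out 1 library gave medians from -0.15 to -0.061 for siSbsn against siControl over both batches, -0.23 to -0.15 in batch 1, -0.11 to -0.056 in batch 2, -0.021 to 0.056 for siControl and -0.18 to -0.098 for siSbsn against no siRNA, -0.010 to 0.14 for the interaction, -0.47 to -0.38 for batch and -0.056 to -0.021 for number. Called higher and lower genes ranged from 0 to 1 and 0 to 3 in batch 1, 0 to 2 and 0 to 4 in siControl against no siRNA, and 0 to 3 each for the interaction, the highest always without siControl batch 1 replicate 2. Reversals were Top2a (-0.059 to 0.090), Cdc20 (-0.049 to 0.13) and Rrm2 (-0.15 to 0.0031) over both batches, and Ccnb2 (-0.022 to 0.28) and Cdc20 (-0.013 to 0.47) in siSbsn against no siRNA.

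With the replicate number of batch 1 as a block, member counts of calls did not change in any comparison it could be fitted to, and medians were -0.093 over both batches, -0.18 in batch 1, 0.0073 and -0.15 for siControl and siSbsn against no siRNA, 0.059 for the interaction and -0.42 for batch. Same-numbered libraries deviated together (correlations 0.38, 0.81 and 0.46), but only 2 numbers exist and the labels give the number no meaning. Batch 1 has 2 libraries a group, so leaving out 1 leaves a lone library that is assumed to vary like the other groups.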
